A study of Mus musculus with 2 samples.

Results

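Runx1, Runx2, Cebpb, Cebpd, Stat3, Myc, Sox4, Sox11, Mxi1 and Klf13 are 10 genes for transcription factors with a known place in responses to injury or stress, out of the 31053 genes measured in single cells of the optic nerve. The genes were chosen from the measured levels of these same libraries, so their differences between the injured and the uninjured nerve are given as descriptions, with no test. Runx proteins bind DNA as heterodimers with the partner CBFB. C/EBP proteins and STAT3 act downstream of cytokines, STAT3 after phosphorylation by JAK kinases at receptors of the IL-6 family. Myc and Mxi1 share the partner Max and act in opposite directions at the same E-box sites, and Sox4 and Sox11 are SoxC factors of immature neural and glial cells.

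The scRNA-seq experiment set cells of 5 injured optic nerves, taken 2 weeks after optic nerve crush (ONC), against cells of 5 uninjured optic nerves, with 1 pooled library for each condition. All mice were wild type of the 129S1/SvlmJ strain, of both sexes pooled and 10 weeks old by the methods, whereas the labels give postnatal day 56 and name the crush for both libraries, so the uninjured library was assigned by its title. The values cover the barcodes that the authors typed as oligodendrocyte precursor cells (OPCs), newly formed oligodendrocytes (NFOs) or oligodendrocytes, and other cell types were not analysed here. With 1 library per condition a difference has no replicate check, and nerve, library preparation and injury cannot be told apart.

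The uninjured library held 959 barcodes with 4414834 UMIs and the injured library 410 barcodes with 2771797 UMIs, and they shared 0 cell barcodes. There were 58 and 17 OPC barcodes, 44 and 100 NFO barcodes, and 857 and 293 oligodendrocyte barcodes in the uninjured and injured library. Depth differed between the oligodendrocytes, with a median of 3060 UMIs per uninjured barcode and 1268 per injured barcode, and 133 of the 293 injured (45.4%) but 48 of the 857 uninjured barcodes drew less than 0.5% of their UMIs from Malat1, a nuclear RNA, and are called Malat1-poor. Markers fixed for mature oligodendrocytes (10 genes, Mag and Mog among them) were all found in the oligodendrocytes of both libraries and the 8 OPC markers, Pdgfra among them, in the OPCs. The 8 NFO markers stood at 4281 CPM in uninjured and 7506 CPM in injured NFOs, against 1518 and 1259 CPM in the OPCs. The OPC markers stood at 6395 and 4869 CPM in the NFOs, against 11469 and 10349 CPM in the OPCs. The NFOs thus still held OPC markers, more so in the uninjured library, and 63.6% and 77% of the NFO barcodes were Malat1-poor. Levels are counts per 1000000 UMIs of a class (CPM), and ratios are injured over uninjured. All intervals are 95% intervals (exact Poisson, binomial or conditional) and cover counting error only.

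Runx1 (ENSMUSG00000022952) spans chr16:92601466-92826149 on the minus strand of GRCm38 and Runx2 (ENSMUSG00000039153) chr17:44495987-44814797 on the minus strand. In both genes the distal start site in RefSeq (GRCm38.p6) is followed by a tandem pair of Runx letters. The 30 bases that hold the pair are shown because they are the sequence these genes share, at chr16:92826025-92826054 and chr17:44814583-44814612, 5′ to 3′ on the gene's strand, with ACCACA, the reverse complement of TGTGGT, in capitals.
Runx1: cataaacaACCACAgaACCACAagttgggt
Runx2: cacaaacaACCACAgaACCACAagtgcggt
The pair begins 28 bases after the start site in Runx1 and 23 bases after it in Runx2, and the longest run that the windows of the pair of genes had in common was 22 bases (aaacaaccacagaaccacaagt). Windows of 250 bases before to 50 bases after a start site were searched on both strands, and TGTGGT was in 16.8% of 32851 windows, while 2 matches starting 8 bases apart were in 20 windows, or 0.0609%. The match is a description of letters and not a binding site.

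The 250 bases before the start site are shown for Runx1 (distal start, chr16:92826075-92826324, minus strand) and for Cebpb (chr2:167688665-167688914, plus strand) and Sox4 (chr13:28953700-28953949, minus strand), the genes with the largest ratios in oligodendrocytes, and for Runx2 (chr17:44814628-44814877, minus strand) as its relative. Capitals mark the E-box CACGTG in Runx1, ACCACA in Runx2 and CACCC or its reverse complement in Cebpb, and the Sox4 stretch held none of the letters searched.
Runx1: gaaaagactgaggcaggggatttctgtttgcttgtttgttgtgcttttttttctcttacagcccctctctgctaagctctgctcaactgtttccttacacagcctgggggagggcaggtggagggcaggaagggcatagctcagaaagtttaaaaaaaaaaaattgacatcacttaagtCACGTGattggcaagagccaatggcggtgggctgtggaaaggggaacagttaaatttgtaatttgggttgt
Runx2: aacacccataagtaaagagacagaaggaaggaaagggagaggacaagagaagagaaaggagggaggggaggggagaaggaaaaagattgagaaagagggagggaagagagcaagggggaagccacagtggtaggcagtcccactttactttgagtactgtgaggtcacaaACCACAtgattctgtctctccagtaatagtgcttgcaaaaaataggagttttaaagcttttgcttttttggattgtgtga
Cebpb: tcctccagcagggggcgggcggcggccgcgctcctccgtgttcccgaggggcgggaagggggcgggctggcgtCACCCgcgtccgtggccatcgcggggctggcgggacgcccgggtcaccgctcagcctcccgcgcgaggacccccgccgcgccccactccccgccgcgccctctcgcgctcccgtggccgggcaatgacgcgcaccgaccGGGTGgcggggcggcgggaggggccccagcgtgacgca
Sox4: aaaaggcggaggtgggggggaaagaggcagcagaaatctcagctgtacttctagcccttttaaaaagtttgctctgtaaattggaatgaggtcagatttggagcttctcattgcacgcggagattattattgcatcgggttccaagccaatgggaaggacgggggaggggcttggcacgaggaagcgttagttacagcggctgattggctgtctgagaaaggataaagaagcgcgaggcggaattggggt
RefSeq windows were matched for 8 of the 10 genes, 11 windows in all. CACGTG was in 1 of the 11, the distal Runx1 window, and in 7.15% of all windows. The Sox letters ACAATG were in the Klf13 window and ACAAAG in the Stat3 window, against 12.6% and 18.7% of all windows, and CACCC, the Klf letters, was in 9 of 11 windows and in 57.5% of all. The C/EBP letters TTGCNNCAA (2.08% of all windows) and the Stat letters TTCNNNGAA (8.30%) were in none of the 11.

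In oligodendrocytes, Runx1, Cebpb and Sox4 stood far apart between the libraries, while Mxi1, Cebpd, Klf13 and Stat3 differed by less than 2-fold. A ratio was computed for the 8591 genes with at least 50 UMIs over both libraries, and 7 of the 10 genes passed this minimum. Of these, 3 were at least 2-fold higher in the injured library, against 5.98% of all genes, and 0 were at least 2-fold lower, against 4.06%. Since the genes were chosen from these values, nothing is read from that count. The median ratio over all genes was 1.03. The split of all genes was 514 higher and 349 lower, but 509 higher and 1941 lower by the mean CPM over barcodes, so the lower side depends on how shallow barcodes are weighted.

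**Figure D1:**
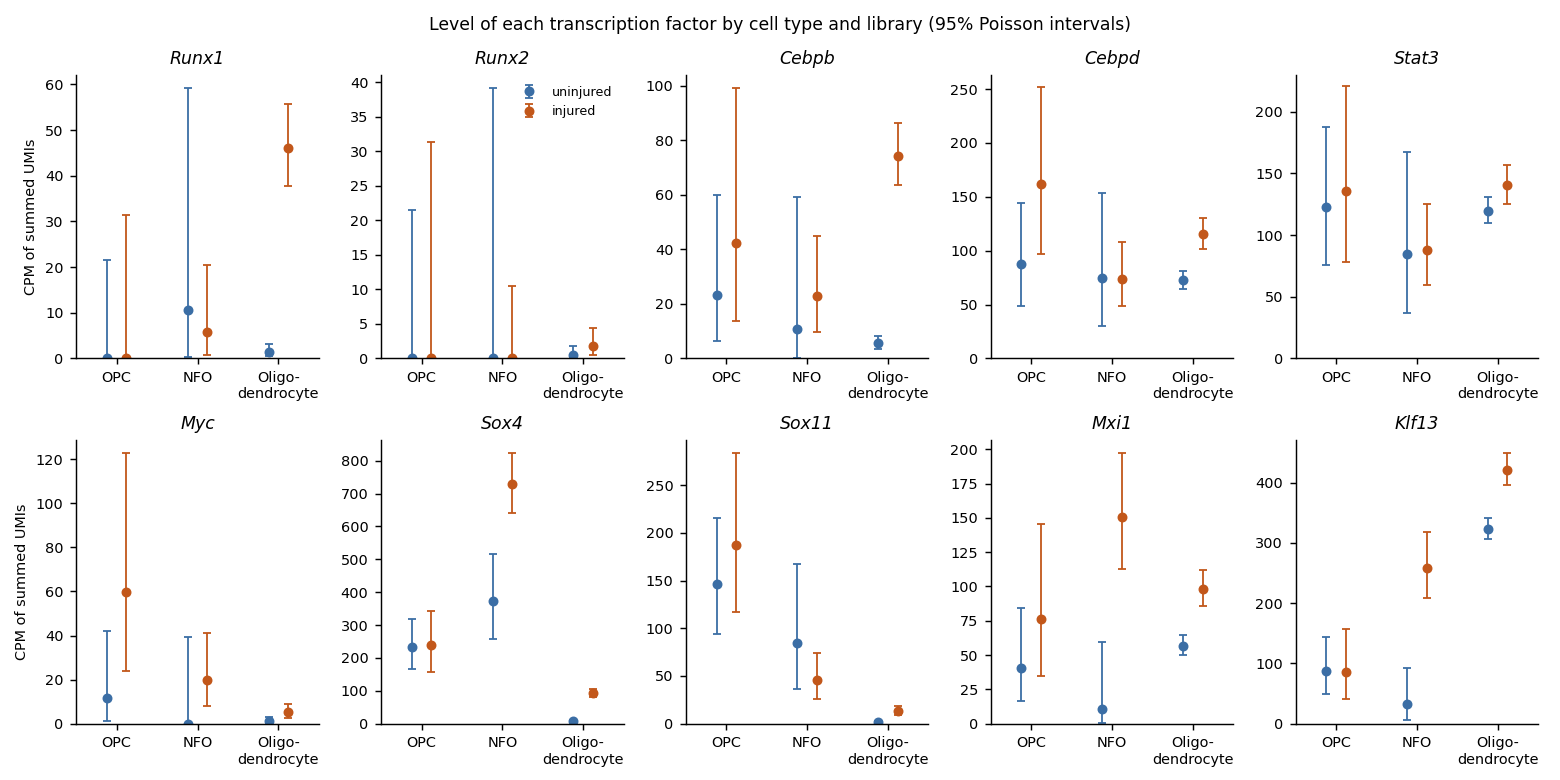
CPM of summed UMIs (vertical axis, own scale per gene) of the 10 genes in OPCs, NFOs and oligodendrocytes of the uninjured (blue) and injured (orange) library; bars are 95% Poisson intervals. Runx1 lay at 46.0 CPM in injured oligodendrocytes and at 1.45 CPM in uninjured ones, and Sox4 was highest in the NFOs.

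Runx1, a DNA-binding factor best known from blood formation, had 6 UMIs in the 857 uninjured oligodendrocytes and 106 UMIs in the 293 injured ones, which gave 1.45 CPM (0.531 to 3.15) and 46.0 CPM (37.7 to 55.7). The ratio was 31.8 (14.2 to 88.7), and 0.128% of the genes had a higher one. All 6 uninjured UMIs were in 2 barcodes, and the injured UMIs were in 30 barcodes. The injured level was thus high and the uninjured level near the floor, with no overlap of their counting intervals. Outside the oligodendrocytes Runx1 was at 0 UMIs in the OPCs of both libraries, which allows up to 17.5 CPM in the uninjured and 25.5 CPM in the injured library by a floor of 3 UMIs. NFOs held 1 UMI in the uninjured and 2 UMIs in the injured library. Within the injured library Runx1 was therefore found in 10.2% of oligodendrocyte barcodes and in 2 of 100 NFO barcodes, at median depths of 1268 and 1258.5 UMIs, but 84 of the 293 oligodendrocytes and only 8 of the NFOs had 8000 or more UMIs. Among those deep barcodes the shares were 26.2% (22 of 84) and 12.5% (1 of 8, 0.316 to 52.7), so a difference in the shares was not detectable at this depth. The levels of these deep oligodendrocytes and NFOs were 46.5 CPM (37.5 to 56.9) and 5.16 CPM (0.131 to 28.8, from 1 UMI). Their counting intervals did not overlap, but they leave out the spread between barcodes.

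Because detection depends on depth, the oligodendrocytes were also compared within bins of UMIs per barcode. Uninjured barcodes held 0 Runx1 UMIs in each of the 3 bins under 8000 UMIs, and the floors there were 27.3, 5.96 and 2.73 CPM for barcodes under 1000, of 1000 to under 3000 and of 3000 to under 8000 UMIs. Injured barcodes of the same bins held 2, 2 and 9 UMIs. In the third of these bins the injured level was 69.1 CPM (31.6 to 131) against that floor of 2.73 CPM. Under 1000 UMIs the injured level of 21.9 CPM was itself under the floor of the uninjured bin, so no difference was detectable there.

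**Figure D2:**
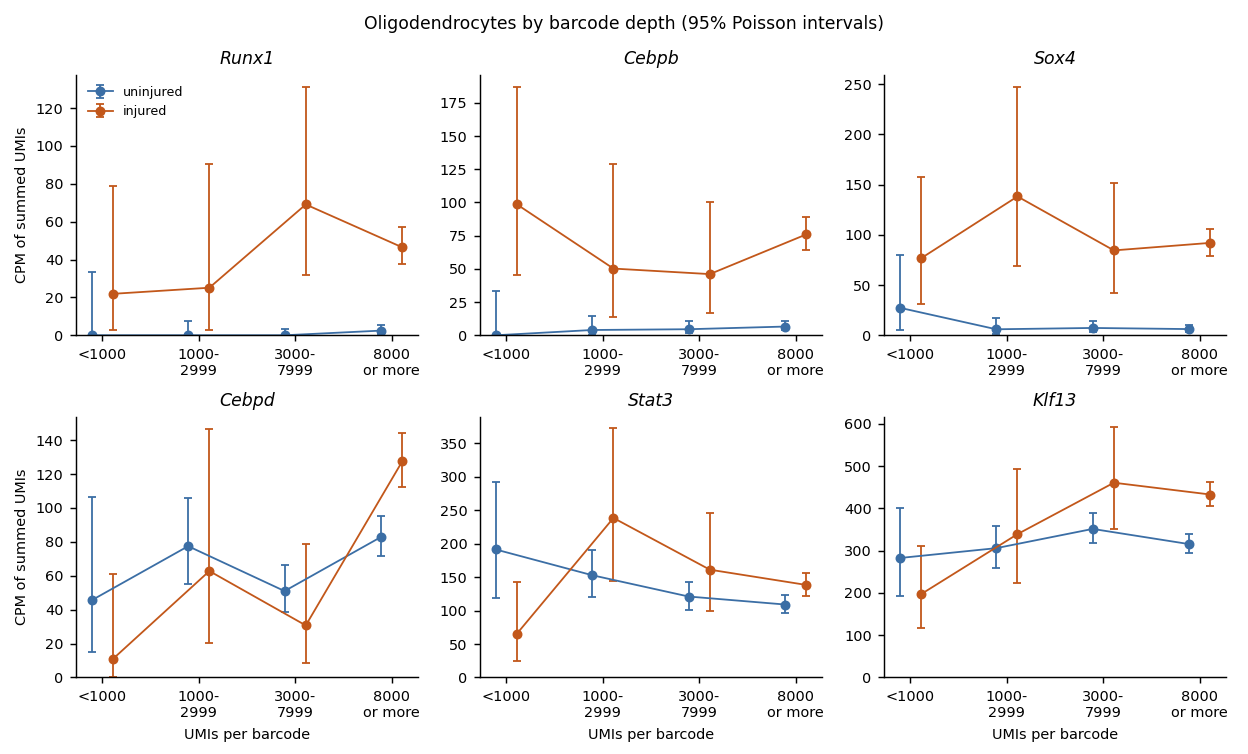
CPM of summed UMIs (vertical axis) of 6 of the genes in oligodendrocytes by UMIs per barcode (horizontal axis) in the uninjured (blue) and injured (orange) library; bars are 95% Poisson intervals. Cebpb and Sox4 lay higher in the injured library in each bin, Runx1 was at 0 UMIs in the uninjured bins under 8000, and Cebpd was lower in the injured library in the 3 bins under 8000 UMIs and higher above.

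The oligodendrocytes of 8000 or more UMIs, 203 uninjured with a median of 11054 UMIs and 84 injured with a median of 22473 UMIs, held 0 Malat1-poor barcodes in either library and gave the firmest comparison. Of 7631 genes, 7.78% were at least 2-fold higher and 3.13% at least 2-fold lower in the injured library, with a median ratio of 1.10. Runx1 had 6 UMIs, or 2.46 CPM, in the uninjured and 93 UMIs, or 46.5 CPM, in the injured barcodes, a ratio of 18.9 (8.35 to 52.8). Its UMIs lay in 2 of the 203 uninjured barcodes (0.985%) and 22 of the 84 injured ones (26.2%). After each barcode was thinned to 8000 UMIs, which left out 0 barcodes, the shares were 0.985% (0.120 to 3.51) and 11.9% (5.86 to 20.8). The shares lay closer together at equal depth, and their intervals did not overlap.

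The Runx1 UMIs were unevenly spread. Of the 22 injured barcodes, 6 held 1 UMI, 12 held 2 to 4 UMIs and 4 held 9 or more, up to 21 in 1 barcode. These 4 barcodes carried 56 of the 93 UMIs (60.2%). Without them the ratio in oligodendrocytes of 8000 or more UMIs was 7.96 (3.33 to 23.1), so the size of the difference rested on 4 barcodes by more than 1.5 times while its direction did not. That cut kept all uninjured barcodes. With the top barcode of each library left out, the oligodendrocytes of all depths held 2 uninjured and 85 injured Runx1 UMIs, a ratio of 77.3. The size of the ratio thus depended on few barcodes in both libraries.

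**Figure D3:**
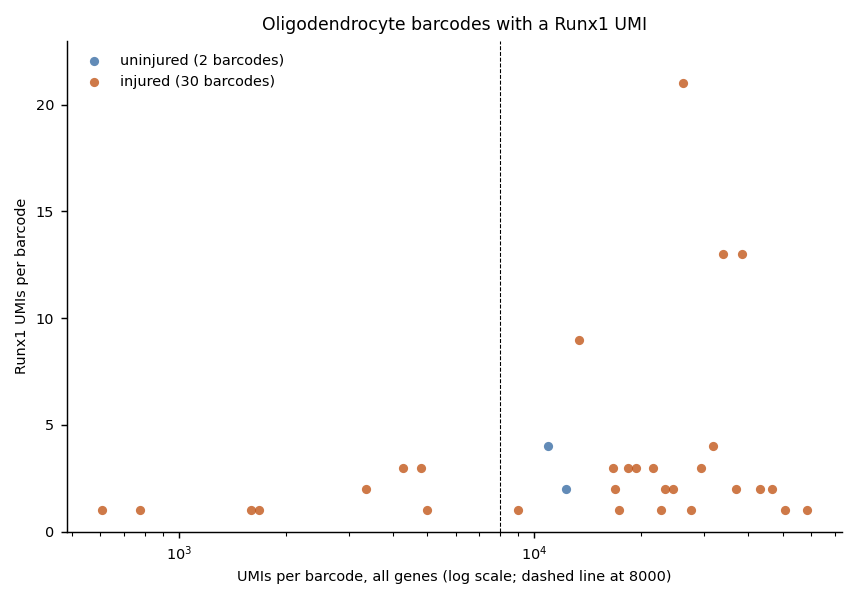
Runx1 UMIs (vertical axis) against all UMIs (horizontal log axis) of each oligodendrocyte barcode with at least 1 Runx1 UMI in the uninjured (blue, 2 barcodes) and injured (orange, 30 barcodes) library. Of the injured barcodes, 22 lay at 8000 or more UMIs, and 4 of them held 9 to 21 Runx1 UMIs.

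Runx1, Cebpb and Cebpd are also made by macrophages and microglia, and RNAs of these cells moved with the libraries. The summed level of 15 macrophage and microglia markers in oligodendrocytes was 29.2 CPM with 14 markers found in the uninjured library and 368 CPM with all 15 found in the injured library. It was close to the same number of UMIs in every depth bin of the injured oligodendrocytes, from 2.52 to 3.13 UMIs per barcode, so its CPM fell from 4554 under 1000 UMIs to 117 at 8000 or more. In the deep injured barcodes 14 of the 15 were found, all but Ptprc. A marker UMI was in 86.9% of the deep injured and 15.3% of the deep uninjured barcodes. Runx1 stood at 21.9 CPM (2.65 to 79.1, from 2 UMIs) in the 133 injured barcodes under 1000 UMIs. In the 84 deep ones it stood at 46.5 CPM (37.5 to 56.9, from 93 UMIs), and these intervals overlapped. Of the 2 uninjured barcodes with Runx1, the one with 4 Runx1 UMIs held 28 marker UMIs (2560 CPM) and the one with 2 Runx1 UMIs held 4 (326 CPM), against 14.1 CPM over the other 201 deep uninjured barcodes. The 22 deep injured barcodes with Runx1 held 109 CPM of the markers (median 115) and the 62 without it 121 CPM (median 109). When barcodes with over 0.1% of UMIs from the markers were left out, Runx1 had 2 UMIs in the uninjured and 102 UMIs in the injured oligodendrocytes, a ratio of 97.3 (26.3 to 815). This limit kept 844 of 857 uninjured but 151 of 293 injured barcodes, so it also removed shallow injured ones, and the uninjured barcode with 4 Runx1 UMIs was among those it left out. The part of macrophage RNA in the Runx1 level was not tested.

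Runx2, the relative of Runx1 known from bone and cartilage, stayed near the floor. It had 2 UMIs in the uninjured and 4 UMIs in the injured oligodendrocytes, a ratio of 3.60 (0.517 to 39.8), and 0 UMIs in OPCs and NFOs of both libraries. Of the 4 injured UMIs, 3 were in 1 barcode, and no deep injured barcode held both Runx1 and Runx2. A difference in Runx2 was not detectable at this depth. Of the partner and the other relative, Cbfb was at 24.1 CPM in uninjured and 21.3 CPM in injured oligodendrocytes (ratio 0.883, 0.614 to 1.25), and Runx3 had 1 and 2 UMIs.

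Cebpb (ENSMUSG00000056501, 1 exon, chr2:167688915-167690418, plus strand), a factor of acute-phase and inflammatory responses, had 23 UMIs in uninjured oligodendrocytes (5.54 CPM) and 171 UMIs in injured ones (74.3 CPM), a ratio of 13.4 (8.64 to 21.7). The injured level was high in all 4 depth bins, at 98.5, 50.2, 46.1 and 76.0 CPM from the shallowest to the deepest, against 0, 3.97, 4.55 and 6.56 CPM, and the counting intervals overlapped in the bin of 1000 to under 3000 UMIs alone. In deep barcodes Cebpb UMIs lay in 10 of the 203 uninjured and 52 of the 84 injured ones, or 4.93% and 61.9%, and after thinning in 2.96% (1.09 to 6.32) and 38.1% (27.7 to 49.3). No single injured barcode held more than 12 of its UMIs. Of the 16 deep uninjured UMIs, 7 were in the 2 barcodes with Runx1 and macrophage marker RNA. The 52 deep injured barcodes with Cebpb held a median of 107 CPM of the macrophage markers and the 32 without it 135 CPM. The median depths of these barcodes were 25554.5 and 16679.5 UMIs. The part of macrophage RNA in the Cebpb and Cebpd levels was not tested.

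In the other types Cebpb rested on few UMIs. OPCs had 4 UMIs in the uninjured library, or 23.3 CPM (6.36 to 59.8), and 5 UMIs in the injured library, or 42.5 CPM (13.8 to 99.2), an interval that includes the level of the injured oligodendrocytes. NFOs had 1 UMI in the uninjured and 8 UMIs in the injured library. All 8 were in barcodes under 8000 UMIs, at 50.6 CPM (21.8 to 99.6), close to the injured oligodendrocytes of 1000 to under 8000 UMIs. The 7 injured NFO barcodes with Cebpb held a median of 2445 CPM of the macrophage markers and the 93 without it 1290 CPM. Their median depths were 1405 and 1198 UMIs. The 8 injured NFO barcodes of 8000 or more UMIs held 0 Cebpb UMIs, which allows up to 15.5 CPM, while the deep oligodendrocytes of the same library held 76.0 CPM (64.4 to 89.0).

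Cebpd (ENSMUSG00000071637, 1 exon, chr16:15887286-15891031, plus strand), a cytokine-induced relative of Cebpb, was present in all 3 types and both libraries. In oligodendrocytes it had 302 UMIs (72.8 CPM) in the uninjured and 265 UMIs (115 CPM) in the injured library, a ratio of 1.58 (1.34 to 1.87). The direction held only for deep barcodes, at 82.9 CPM and 127 CPM (ratio 1.54, 1.27 to 1.86), while under 8000 UMIs the ratio was 0.568. In barcodes under 1000 UMIs the levels were 45.6 CPM (14.8 to 106) and 10.9 CPM (0.277 to 61.0), which overlapped. The thinned shares of deep barcodes, 30.5% (24.3 to 37.4) and 47.6% (36.6 to 58.8), overlapped as well. In OPCs Cebpd was at 87.6 and 162 CPM and in NFOs at 74.4 and 73.9 CPM, with overlapping intervals in both types.

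Among the 6 further genes of the C/EBP family and its regulators, 4 passed the minimum in oligodendrocytes and 2 of them were at least 2-fold higher, against 5.98% of all genes, with a median ratio of 1.94. This list, like the other lists of related genes, was chosen with earlier results of these data known. Trib1, a pseudokinase that promotes the breakdown of C/EBP proteins, was at 3.37 and 30.0 CPM (ratio 8.88, 4.95 to 17.1). Ddit3, the C/EBP member of the stress response, was at 52.1 and 120 CPM (2.31, 1.93 to 2.77). In deep barcodes the Trib1 ratio was 11.1 (5.11 to 28.8) and that of Ddit3 fell short of 2-fold, at 1.97 (1.60 to 2.43).

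Stat3 (ENSMUSG00000004040, chr11:100885098-100939540, minus strand), the transducer of IL-6 family cytokines, differed little. It had 497 UMIs (120 CPM) in uninjured and 323 UMIs (140 CPM) in injured oligodendrocytes, a ratio of 1.17 (1.02 to 1.35), close to the median of all genes. In deep barcodes it was at 109 and 138 CPM (1.27, 1.07 to 1.51), and under 1000 UMIs it was lower in the injured library, at 191 and 65.7 CPM, with overlapping intervals. Its share of deep barcodes, 66.5% and 90.5%, became 54.7% (47.6 to 61.7) and 64.3% (53.1 to 74.4) once depth was equal, with overlapping intervals. OPCs (123 and 136 CPM) and NFOs (85.0 and 88.1 CPM) did not differ beyond their counting intervals.

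The receptors, kinases and feedback genes around Stat3 held genes that stood further apart than Stat3 itself. Of 15 listed genes, 10 passed the minimum in oligodendrocytes, 4 were at least 2-fold higher and 0 at least 2-fold lower, against 5.98% and 4.06% of all genes, with a median ratio of 1.29. Socs3, the feedback inhibitor that STAT3 induces, was at 40.5 CPM in the uninjured and 201 CPM in the injured library (4.97, 4.15 to 5.96). Cntfr, the receptor subunit for CNTF, was at 19.8 and 70.8 CPM (3.58, 2.73 to 4.73), the kinase Jak1 at 41.2 and 92.9 CPM (2.26, 1.84 to 2.77) and the phosphatase Ptpn11 at 94.7 and 190 CPM (2.00, 1.74 to 2.30). In deep barcodes Socs3, Cntfr and Jak1 were past 2-fold, at ratios of 5.88, 5.63 and 2.34, and Ptpn11 was not, at 1.86. Of the injured UMIs, the deep barcodes held 444 of 463 for Socs3, 148 of 163 for Cntfr and 198 of 214 for Jak1. Of the uninjured UMIs they held 92 of 168, 32 of 82 and 103 of 171. These differences thus rested mostly on deep injured barcodes, and no ratio under 8000 UMIs is given for these genes. The shared receptor chain Il6st was at 55.9 and 77.3 CPM. Socs3 was also higher in NFOs, at 42.5 and 193 CPM (4.55, 1.70 to 17.2), and in OPCs, at 210 and 425 CPM (2.02, 1.29 to 3.20). In NFOs Ptpn11 was at 31.9 and 287 CPM (9.01, 2.995 to 44.4), and these 2 were the listed genes of the group that passed the minimum there. Of the 6 other STAT genes 2 passed the minimum in oligodendrocytes and 0 were past 2-fold.

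Myc (ENSMUSG00000022346, chr15:61985391-61990374, plus strand), a driver of growth and division, was sparse and under the minimum in each type. Oligodendrocytes had 5 UMIs in the uninjured and 12 UMIs in the injured library (1.21 and 5.21 CPM; ratio 4.33, 1.42 to 15.7). OPCs had 2 and 7 UMIs, a ratio of 5.10 (0.971 to 50.3), and NFOs 0 and 7 UMIs. Among the 3 types of both libraries, injured OPCs held the highest Myc level, 59.5 CPM (23.9 to 123), which overlapped with that of injured NFOs, 19.9 CPM (8.00 to 41.0). In deep oligodendrocytes 3 of 203 uninjured and 9 of 84 injured barcodes held a UMI, and after thinning the shares of 0.985% and 4.76% overlapped in their intervals.

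Mxi1 (ENSMUSG00000025025, chr19:53310518-53375810, plus strand), which competes with Myc for Max, was at 56.9 CPM (236 UMIs) in uninjured and 98.2 CPM (226 UMIs) in injured oligodendrocytes. The ratio was 1.73 (1.43 to 2.08), and 1.83 (1.46 to 2.31) in deep barcodes. The injured level was higher in the 3 bins from 1000 UMIs up, at 138, 115 and 96.9 CPM against 71.5, 52.8 and 52.9 CPM, and lower under 1000 UMIs, at 65.7 against 119 CPM, with overlapping intervals. In NFOs Mxi1 had 1 UMI in 44 uninjured barcodes and 53 UMIs in 22 of 100 injured barcodes, a ratio of 14.2 (2.44 to 570). Of the 53 UMIs, 32 were in the 8 deep barcodes, and under 8000 UMIs the levels were 14.2 CPM (1 UMI) and 133 CPM. Thinned to 500 UMIs, the NFOs had 0 and 9 Mxi1 UMIs, a ratio of 1.26 with the floor of 3 UMIs in place of 0. The thinned shares of barcodes, 0% (upper bound 8.41%) and 7% (2.86 to 13.9), overlapped. Without the top barcode of each library the NFOs had 0 and 42 UMIs, a ratio of 3.85 by the floor. Of the 11 further genes of the Myc, Max and Mxd network 7 passed the minimum in oligodendrocytes, with Max at 34.7 and 38.7 CPM and a median ratio of 1.19. Of these 0 were past 2-fold, against 5.98% higher and 4.06% lower of all genes. In deep barcodes 1 of the 6 that passed was at least 2-fold higher, against 7.78% of all genes. It was Mxd1, a further Max partner, at 13.1 and 27.5 CPM (2.09, 1.33 to 3.35).

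Klf13 (ENSMUSG00000052040, chr7:63886351-63938915, minus strand), a Krüppel-like factor that acts in oligodendrocyte maturation, had 1340 UMIs (323 CPM) in uninjured and 971 UMIs (422 CPM) in injured oligodendrocytes, a ratio of 1.31 (1.20 to 1.42). In deep barcodes it was found in 95.6% and 100% of barcodes at 315 and 433 CPM (1.37, 1.24 to 1.51). By stage Klf13 was higher toward the oligodendrocytes in the injured library, from 85.0 CPM (40.8 to 156) in OPCs to 259 CPM (208 to 318) in NFOs and 422 CPM (396 to 449) in oligodendrocytes. In the uninjured library OPCs were at 87.6 CPM (49.0 to 144) and NFOs at 31.9 CPM (6.57 to 93.1), which overlapped. The uninjured oligodendrocytes, at 323 CPM, stood above both. The NFOs differed between the libraries, with 3 UMIs and 91 UMIs and a ratio of 8.12 (2.69 to 40.1). Of the 91 UMIs, 72 were in the 8 deep barcodes, so the step from OPCs to NFOs in the injured library rested mostly on these. Under 8000 UMIs the NFOs held 3 and 19 UMIs, a ratio of 2.81. Thinned to 500 UMIs, the NFOs had 0 and 10 Klf13 UMIs, at least 1.40-fold higher by the floor. Of 14 further Klf genes 7 passed the minimum in oligodendrocytes, with a median ratio of 1.22. Of these 0 were past 2-fold, against 5.98% higher and 4.06% lower of all genes. In deep barcodes 1 of the 6 that passed was at least 2-fold higher, against 7.78% of all genes. It was Klf15, at 9.85 and 22.5 CPM (2.28, 1.36 to 3.92).

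Sox4 (ENSMUSG00000076431, 1 exon, chr13:28948919-28953713, minus strand) was highest in NFOs, lower in OPCs and lowest in oligodendrocytes in both libraries, although the NFO and OPC intervals of the uninjured library overlapped. In the injured library the interval of the NFOs under 8000 UMIs, given below, overlapped with that of the OPCs as well. In OPCs it was at 233 CPM (167 to 318) and 238 CPM (158 to 344), a ratio of 1.02, and it was the 1 gene of the 10 that passed the minimum there. Across 993 genes in OPCs 10.3% were at least 2-fold higher and 6.45% at least 2-fold lower. In oligodendrocytes Sox4 had 29 UMIs (6.99 CPM) in the uninjured and 213 UMIs (92.5 CPM) in the injured library, a ratio of 13.2 (8.95 to 20.2). The injured level was higher in each depth bin, at 76.6, 138, 84.5 and 91.9 CPM against 27.3, 5.96, 7.28 and 6.15 CPM, and the intervals of the shallowest bin overlapped. In deep barcodes 6 of 203 uninjured and 46 of 84 injured ones held a UMI, 2.96% and 54.8%, and after thinning 2.46% (0.804 to 5.65) and 28.6% (19.2 to 39.5). Of the 15 deep uninjured UMIs, 10 were in 1 barcode.

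Sox4 marks immature stages, so stage markers are given beside it. Deep injured barcodes with a Sox4 UMI had 61176 CPM of the mature oligodendrocyte markers and those without had 63769 CPM. Over all deep oligodendrocytes these markers stood at 78402 CPM in the uninjured and 62262 CPM in the injured library. The 8 OPC markers stood at 51.0 CPM in all deep injured oligodendrocytes, with 6 of the 8 found and Pdgfra and Vcan at 0 UMIs, against 33.2 CPM with all 8 found in deep uninjured oligodendrocytes and 4869 CPM in injured NFOs. The 8 NFO markers stood at 1093 CPM in deep uninjured and 998 CPM in deep injured oligodendrocytes, against 7506 CPM in injured NFOs. The part of RNA from precursors or NFOs in the Sox4 level was not tested.

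In NFOs, 3 of the 10 genes passed the minimum, and 2 of these, Mxi1 and Klf13, were at least 2-fold higher in the injured library, against 13.3% of 1695 genes, while 0 were at least 2-fold lower, against 4.01%. The median ratio of all genes was 1.15. Scaling by that median changed the split of all genes from 226 higher and 68 lower to 171 higher and 114 lower. Sox4 was at 372 CPM (259 to 517) in the 44 uninjured and 728 CPM (641 to 822) in the 100 injured NFO barcodes, a ratio of 1.96 (1.37 to 2.87). This difference rested on few barcodes, since 201 of the 256 injured UMIs were in the 8 barcodes of 8000 or more UMIs and 66 in 1 of them. Under 8000 UMIs the levels were 384 CPM (253 to 559) and 348 CPM (262 to 452), which overlapped. The macrophage markers stood at 42.5 CPM in uninjured NFOs, with 3 of 15 found, and at 895 CPM in injured NFOs, with 14 of 15 found, and their part in these differences was not tested.

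Sox11 (ENSMUSG00000063632, 1 exon, chr12:27334264-27342574, minus strand), the other SoxC gene, was highest in OPCs, at 146 CPM (94.4 to 215) in the uninjured and 187 CPM (117 to 283) in the injured library. In NFOs it was at 85.0 CPM (36.7 to 167) and 45.5 CPM (upper bound 73.8), below the OPCs beyond the intervals in the injured library alone, with a ratio of 0.535 (0.216 to 1.44), so a difference was not detectable. In oligodendrocytes it had 6 UMIs (1.45 CPM) and 30 UMIs (13.0 CPM), a ratio of 9.01 (3.69 to 26.5) that did not count among the genes past 2-fold, since 36 UMIs were under the minimum. In deep barcodes 1 of 203 uninjured and 12 of 84 injured ones held a UMI. After thinning the shares were 0%, with an upper bound of 1.80%, and 5.95% (1.96 to 13.3). Of the 11 other Sox genes 5 passed the minimum in oligodendrocytes, with a median ratio of 0.789. Of these 1 was at least 2-fold higher and 0 at least 2-fold lower, against 5.98% and 4.06% of all genes. Sox9, a factor of astrocytes and early precursors, was past 2-fold at 3.86 and 15.6 CPM (4.06, 2.19 to 7.83), while Sox10, which oligodendrocytes use throughout, was at 341 and 215 CPM (0.631, 0.568 to 0.699).

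**Figure D4:**
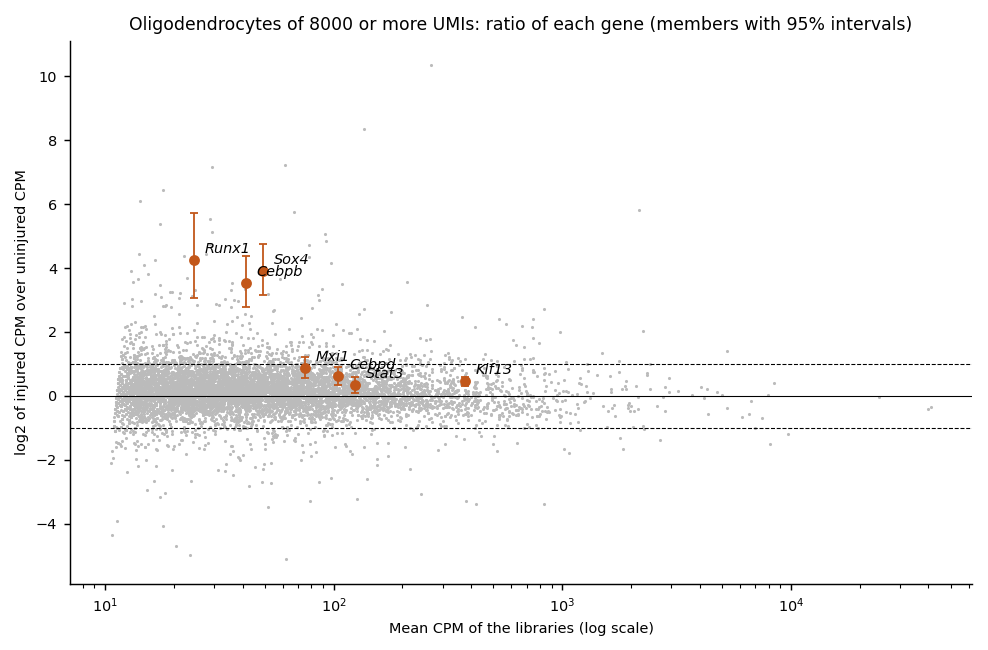
Log2 of the injured over the uninjured CPM (vertical axis) against the mean CPM of the libraries (horizontal log axis) of 7631 genes (grey) in oligodendrocytes of 8000 or more UMIs, with 95% intervals for the 7 members of the set that passed the minimum (orange) and dashed lines at 2-fold. Runx1, Sox4 and Cebpb lay above the upper line, and Mxi1, Cebpd, Klf13 and Stat3 between the lines.

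The deep oligodendrocytes also show how the genes fell on the same barcodes. An uninjured barcode held a UMI of a median of 3 of the 10 genes (range 0 to 6) and an injured one of 5 (range 1 to 9). After thinning to 8000 UMIs the medians were 2 and 3, and 8.87% of uninjured and 47.6% of injured barcodes held at least 4. The genes were chosen from the levels of these libraries and no other gene sets were counted, so nothing is read from these counts. The 22 injured barcodes with Runx1 had a median of 25440 UMIs and the 62 without it 21719. Sox4 was found in 77.3% of the barcodes with Runx1 and in 46.8% of those without, Cebpd in 81.8% and 56.5%, Cebpb in 72.7% and 58.1%, Sox11 in 36.4% and 6.45%, and Myc in 22.7% and 6.45%. These shares come from barcodes of 1 library that differ in depth and are a description. The genes were thus found in overlapping but different barcodes, and the barcode with most Runx1 UMIs, 21, held 9 Cebpb UMIs and 0 Sox4 UMIs.

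**Figure D5:**
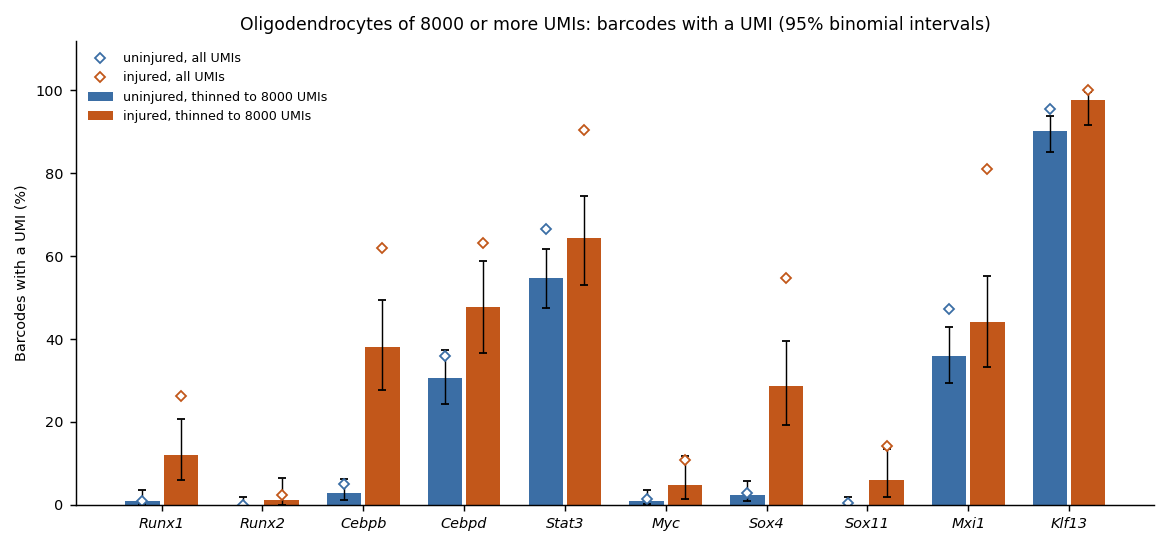
Share of oligodendrocyte barcodes of 8000 or more UMIs with a UMI of each gene (vertical axis, %) in the uninjured (blue, 203 barcodes) and injured (orange, 84 barcodes) library; bars are shares after thinning to 8000 UMIs with 95% binomial intervals, and diamonds are shares with all UMIs. The thinned intervals were apart for Runx1, Cebpb, Sox4 and Sox11 and overlapped for the other 6 genes.

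Levels were also compared over 12 classes, the OPCs, the NFOs and the 4 depth bins of oligodendrocytes in each library, by Pearson's r of log2(CPM + 10). The classes differ in depth and share libraries, so r is a description. Among 9153 genes, the most like Runx1 were Ctsb (r = 0.883), Klk8 (0.875), Gm26870 (0.861), Gadd45b (0.849) and Scly (0.838). Ctsb, a lysosomal protease, was at 239 CPM in uninjured and 1254 CPM in injured deep oligodendrocytes, and Klk8, a secreted protease, at 0.410 and 533 CPM. The most like Sox11 were Zfp219 (0.961), Lrrn2 (0.958), Col11a1 (0.952), Cav2 (0.952) and Mdk (0.951), all higher in the OPCs than in deep oligodendrocytes. Cav2, a caveolin, was at 245 and 255 CPM in uninjured and injured OPCs and at 4.51 and 22.5 CPM in the deep oligodendrocytes. Within the set Runx1 was closest to Cebpb (r = 0.712), and Sox4 was close to Sox11 (0.724) and Mxi1 to Klf13 (0.744).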

How the data were processed

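Single cells of injured and uninjured optic nerves were captured with the 10x Chromium v2 kit. The submitters' processing notes name Cell Ranger 1.3, bcl2fastq 2.17.1.14, Seurat 4.0.3 and mm10. The authors filtered the cells by genes, mitochondrial share and an upper limit on UMIs meant to remove doublets, drew equal numbers of cells per library and assigned types. The deposited values are natural logs, ln(1 + x), where x is a gene's UMIs in a barcode divided by all UMIs of that barcode and multiplied by 10000. A deposited table of both libraries together was not used.

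UMIs were recovered by taking the values out of the log and dividing by each barcode's smallest value, and were whole within 0.001 in 100% of barcodes. They were summed per type and library with pandas 2.3.3, scipy 1.17.1 and numpy 2.4.6 in Python 3.11.15. Genes entered with at least 50 summed UMIs, and past 2-fold means a ratio of at least 2 or at most 0.5. No doublets were called, since other cell types were not analysed here. Barcodes were thinned to 500 UMIs (all types) or 8000 UMIs (deep oligodendrocytes). Groups of 0 UMIs were set to a floor of 3 UMIs over the class. Cells of 1 library are not replicates, so no p-values were computed. The ratios and intervals were checked on simulated counts.

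The 10 genes and the lists of 65 related genes were chosen with earlier results of these data known. Genes named beside the 10 are those of the lists past 2-fold (at most 4 per list) and the 5 genes most like Runx1 and Sox11. Cbfb, Runx3, Il6st, Max and Sox10 were named after their values were seen. Alternatives were the mean CPM over barcodes, scaling by the median ratio, at least 0.5% Malat1, a stricter filter (500 genes, at most 10% mitochondrial UMIs), barcodes under 8000 UMIs, at most 0.1% macrophage markers, thinning, leaving out the top barcode, and minima of 200 and 10 UMIs. The comparison of barcodes of 8000 or more UMIs, thinning to 8000 and leaving out the 4 top Runx1 barcodes were added after seeing the data. Coordinates are from GENCODE vM21 (GRCm38) and promoters from RefSeq (GRCm38.p6).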

Additional observations from a re-analysis of the deposited data

How the results depend on the processing

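Each of 18 ratios of the 10 genes in NFOs and oligodendrocytes was recomputed under the alternatives, 140 values in all. Of these 122 lay within the counting interval of the reported ratio, 9 lay outside it and 9 turned the direction of a ratio whose interval did not include 1. In oligodendrocytes the Cebpd ratio turned to 0.810 by mean CPM over barcodes, 0.568 under 8000 UMIs and 0.572 with barcodes thinned to 500 UMIs. Stat3 turned to 0.905 by mean CPM and 0.663 thinned, and Klf13 to 0.994 by mean CPM and 0.904 thinned. In NFOs Sox4 turned to 0.904 under 8000 UMIs and 0.998 thinned. Runx1, Cebpb and Sox4 in oligodendrocytes stayed at least 2-fold higher under each alternative that gave a value, and Runx1 reached 97.3 with at most 0.1% macrophage markers. Thinning to 500 UMIs left too few Runx1 UMIs for a value.

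Genes at least 2-fold higher in NFOs numbered 44 of 329 with a minimum of 200 UMIs and 1015 of 6391 with 10 UMIs. Under 8000 UMIs they numbered 92 of 748. Of the genes of the set that passed each minimum, 0 of 1, 2 of 6 and 0 of 1 were among them. In oligodendrocytes the numbers were 222 of 4808, 1072 of 11183 and 251 of 5626, and of the set 1 of 5, 5 of 9 and 0 of 4. With 10 UMIs the 5 were Runx1, Cebpb, Sox4, Sox11 and Myc. Under 8000 UMIs fewer than the 7 genes still passed the minimum, 4 in oligodendrocytes, and Runx1, Cebpb and Sox4 were not among them. Scaling by the median ratio shifts all NFO values by 0.20 and all OPC values by 0.24 on the log2 scale, and the OPC split then changed from 102 higher and 64 lower to 40 higher and 109 lower.

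Each condition is 1 library, so neither variation between mice nor a library effect can be estimated, and no paired analysis was possible because no sample has a replicate. Uninjured NFOs (94130 UMIs) and injured OPCs (117597 UMIs) limit the rare genes most. Sox11, Myc and Runx2 were under the minimum in oligodendrocytes.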
